A study of Mus musculus with 16 samples.

Results

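Genes used to recognise or study the type 1 classical dendritic cell (cDC1) were followed across mouse spleen dendritic cells: Clec9a, Ly75, Cd36, Wdfy4, Rab43, Cadm1, Btla, Naaa, Sept3 and Snx22. They were found by gene name in the count table. They make up 10 of its 24116 genes, and all 10 passed the filter on low counts, which left 13790 genes to test. RNA sequencing was done on 4 sorted subsets, named Dec205, pDC (plasmacytoid dendritic cells), Esamlo and Esamhi. Each subset was sequenced in WT and in CKO cells, with 2 libraries per group and 16 libraries in all. The series describes the CKO cells as lacking Etv6, which encodes an ETS-family repressor of transcription. The Cre driver is not given in the sources used here, nor are the exons removed, the age or the number of animals per library. Nothing in the labels says that the 2 libraries of a group came from different animals, so p-values here rest on a spread that may be technical.

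Classical dendritic cells take up antigen and present it to T cells, and cDC1 are known above all for cross-presentation, the display of antigen from engulfed dead cells on MHC class I to CD8 T cells. Cross-presentation needs an uptake receptor, an endosomal route that spares the antigen, and the class I loading machinery. The cDC1 in spleen are recognised by surface proteins such as XCR1, DEC-205, CLEC9A and CADM1, and depend on the transcription factors IRF8 and BATF3. Esamlo and Esamhi cells belong to the other classical lineage, cDC2, and pDC are the lineage known for type I interferon.

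Library totals ran from 14434287 to 20709265 counts, with 12806 to 15252 genes detected, and 3 counts correspond to 0.143 to 0.228 CPM. CPM is the count of a gene relative to its library size, scaled here by the trimmed mean of M-values (TMM). Etv6, the targeted gene, stood at 337 and 375 CPM in Dec205 WT and at 205.2 and 219 in Dec205 CKO, a fall of 1.68-fold (edgeR adjusted p = 0.000996). In pDC it stood at 345.5 and 352 in WT and at 363 and 322 in CKO, so the gene total does not separate these labels. Neither Esamlo nor Esamhi passed the test for Etv6 (edgeR adjusted p = 0.255 and 0.812). Genotype coincided with sex: Xist was at 114 to 355 CPM in the 8 CKO libraries and at most 1.44 in the 8 WT libraries, and Ddx3y showed the reverse. Every CKO against WT difference below therefore cannot be told apart from a difference between female and male mice. For each of 3 marker lists the sum was highest in the subset or subsets it marks, though pDC also held part of the cDC1 and cDC2 lists. The summed level of 27 other cDC1 genes was 20600 and 20710 CPM in the Dec205 WT libraries against 8225 and 7921 in pDC WT and 1541 to 2198 in Esamlo and Esamhi WT. Irf8 alone supplied 6810 and 6515 CPM of the pDC WT sums. By edgeR 24 of the 27 genes were higher in Dec205 WT than in pDC WT (25.2% of all tested genes), and 1, Irf8, was lower. Summed over 15 genes, pDC markers reached 16680 CPM in both pDC WT libraries and 358 and 361 in Dec205 WT. The cDC2 list of 16 genes summed to 4633 to 4898 in Esamlo and Esamhi WT, against 2170 and 2086 in pDC WT and 252 and 289.5 in Dec205 WT.

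Promoter sequence is shown for the 4 genes that carry the patterns described below: Btla, which rose in CKO pDC, Wdfy4, which was high in every classical subset, Clec9a, which Dec205 shared with pDC, and Naaa, the member with the highest level per length in Dec205. Each run is the 250 bases before a RefSeq start site on GRCm38.p6, written 5′ to 3′ in the direction of the gene. Capitals mark the letters AGGAAGT, a core recognised by ETS family factors. The windows are chr16:45224087-45224336 on the plus strand for Btla, chr14:33185067-33185316 on the minus strand for Wdfy4, chr6:129408612-129408861 on the plus strand for Clec9a and chr5:92278182-92278431 on the minus strand for Naaa. Those of Btla and Wdfy4 lie inside the gene spans, which begin at 45223705 for Btla and at 33193855 for Wdfy4. The start sites used for Btla and Wdfy4 are therefore not the outermost ones.
Btla: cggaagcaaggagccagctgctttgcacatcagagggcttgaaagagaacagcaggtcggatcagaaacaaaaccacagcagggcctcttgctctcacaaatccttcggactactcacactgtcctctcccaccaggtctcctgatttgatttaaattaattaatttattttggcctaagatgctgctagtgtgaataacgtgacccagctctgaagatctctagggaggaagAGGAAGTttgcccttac
Wdfy4: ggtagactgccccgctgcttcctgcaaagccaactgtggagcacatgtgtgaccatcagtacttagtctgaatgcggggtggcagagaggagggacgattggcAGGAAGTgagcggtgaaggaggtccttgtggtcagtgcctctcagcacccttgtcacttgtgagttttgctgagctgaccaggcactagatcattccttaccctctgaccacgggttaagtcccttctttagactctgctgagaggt
Clec9a: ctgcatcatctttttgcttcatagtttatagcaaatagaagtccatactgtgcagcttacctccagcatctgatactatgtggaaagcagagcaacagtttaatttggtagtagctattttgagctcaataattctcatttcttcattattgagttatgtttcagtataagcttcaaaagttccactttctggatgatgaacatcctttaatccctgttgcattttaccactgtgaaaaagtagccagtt
Naaa: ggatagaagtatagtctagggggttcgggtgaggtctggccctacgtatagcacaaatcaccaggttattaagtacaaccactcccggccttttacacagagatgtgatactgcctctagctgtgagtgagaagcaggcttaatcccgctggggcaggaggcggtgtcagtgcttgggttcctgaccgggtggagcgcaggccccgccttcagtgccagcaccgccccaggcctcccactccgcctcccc
RefSeq windows matched 8 of the 10 genes, Sept3 and Cadm1 having none. On both strands 4 motifs were searched: an AP-1 motif, TGANTCA, found in 6.75% of 32851 windows of the same length, an ETS-IRF composite (GGAA, 2 free bases and GAAA) in 2.3%, a tandem of GAAA with the same spacing in 2.98%, and a longer ETS motif, CCGGAAGT, in 2.88%. No member window held any of these. The shorter AGGAAGT, added after the windows had been read and present in 7.69% of windows, occurred in Btla, where it begins 17 bases before the start site, and in Wdfy4, where it begins 147 bases before it. It shares the letters GGAAGT with the longer ETS motif, and the composite and the tandem motif differ in a single base. Neither a match nor its absence says whether a factor binds there.

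**Figure D1:**
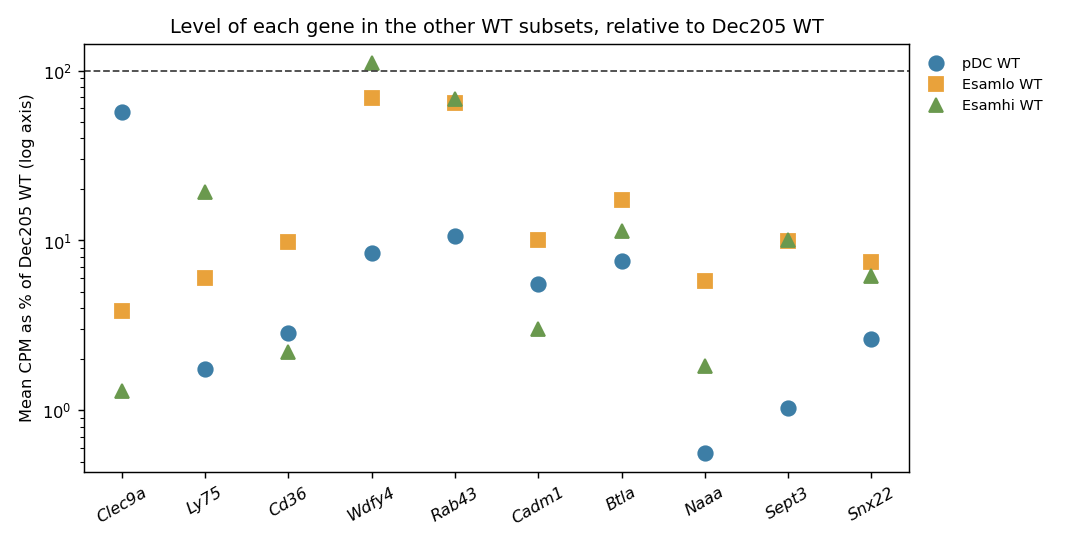
Mean CPM in the pDC, Esamlo and Esamhi WT libraries (n = 2 each) as a percentage of the Dec205 WT mean, on a log axis, for each of the 10 genes. Clec9a stands high in pDC at 56.8%, Wdfy4 and Rab43 stand at 64.2% to 110.1% in both cDC2 subsets, and the other 7 genes are under 20% everywhere.

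In WT cells the 10 genes did not follow 1 pattern. Of the 10, 7 (Ly75, Cd36, Cadm1, Btla, Naaa, Sept3 and Snx22) stood in all 3 other subsets at 19.3% or less of their Dec205 mean. Wdfy4 and Rab43 were high in every classical subset and low in pDC. Clec9a was high in Dec205 and pDC and low in both cDC2 subsets. These terms are relative to the Dec205 level of the same gene. Naaa and Btla averaged 143.8 and 123.3 CPM in Esamlo, near the 126 CPM of Clec9a in pDC. By edgeR's quasi-likelihood test with Benjamini-Hochberg adjustment, Dec205 was higher than pDC for 9 of 10 genes (all but Clec9a), where 25.2% of all tested genes were higher. It was higher than Esamlo for 10 of 10 (16.1% of all genes) and higher than Esamhi for 9 of 10, all but Wdfy4 (17.9%). Median differences over the 10 genes were 4.65, 3.34 and 3.66 on the log2 scale, against 0.00, -0.04 and -0.04 over all tested genes. The genes are known as cDC1 genes, so a high level in Dec205 is part of why they are listed. With library size alone as the scale, the median of all genes moved to -0.24, -0.17 and -0.14, and the share of calls that were higher in Dec205 went from 52.9% to 39.5%, from 47% to 36.1% and from 48% to 40.3%.

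The uptake receptors came first. CLEC9A, a C-type lectin that senses actin exposed by dead cells, is encoded on chromosome 6. Clec9a stood at 228 and 215 CPM in Dec205 WT, 125 and 127 in pDC, 10.5 and 6.51 in Esamlo, and 5.17 and 0.623 in Esamhi. The pDC libraries thus sat at 56.8% of the Dec205 mean and far above both cDC2 subsets. Dec205 exceeded pDC by 0.82 ± 0.42 (SE, log2, n = 2 per group), which did not pass (edgeR adjusted p = 0.132), though it did in a fit of those 4 libraries alone (edgeR adjusted p = 0.00276). Over Esamlo the excess was 25.9-fold (edgeR adjusted p = 1.64e-05), and pDC exceeded Esamlo 14.7-fold (edgeR adjusted p = 3.28e-05). The 2 Esamhi WT libraries disagreed, with 97 counts in replicate 1 and 12 in replicate 2, so the order of Esamlo and Esamhi was not settled (edgeR adjusted p = 0.137, and 0.00419 without Esamhi WT replicate 1).

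Ly75 encodes DEC-205, the endocytic lectin after which the first subset is named, so its level there follows the sort. It read 203 and 238 CPM in Dec205 WT, 42.7 and 42.3 in Esamhi, 15.7 and 10.9 in Esamlo and 1.60 and 6.15 in pDC. No libraries of different subsets overlapped. Esamhi exceeded Esamlo 3.19-fold (edgeR adjusted p = 0.0157), a call lost without Esamlo WT replicate 2 (0.166), Esamhi WT replicate 1 (0.0895) or Esamhi WT replicate 2 (0.0699). Cd36 encodes a scavenger receptor for lipids and apoptotic cells. Its levels were 510 and 428 CPM in Dec205 WT, 50.5 and 42.0 in Esamlo, 9.88 and 16.9 in pDC and 15.3 and 5.34 in Esamhi. The pDC and Esamhi libraries overlapped (edgeR adjusted p = 0.468), and Esamlo lay 4.48-fold above Esamhi (edgeR adjusted p = 0.00553).

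The 2 genes of the endosomal route were the broadest. WDFY4, a BEACH-domain protein needed for cross-presentation of cell-associated antigen, was at its highest in Esamhi. Wdfy4 read 970 and 750 CPM in Esamhi WT, 725 and 837 in Dec205, 599 and 479 in Esamlo and 65.4 and 65.9 in pDC. Dec205 and Esamhi overlapped (log2 difference -0.14 ± 0.16, edgeR adjusted p = 0.545). Dec205 exceeded Esamlo 1.45-fold (edgeR adjusted p = 0.0241), and that call was lost without Dec205 WT replicate 2 (0.142), without Esamlo WT replicate 2 (0.204) or with library size alone as the scale (0.0614). Rab43 encodes a small GTPase of vesicle traffic implicated in cross-presentation by cDC1. It stood at 896 and 887 CPM in Dec205 WT, 660 and 560 in Esamhi, 606 and 539 in Esamlo and 96.8 and 93.7 in pDC. Dec205 was above Esamlo by 1.56-fold and above Esamhi by 1.46-fold (edgeR adjusted p = 0.000398 and 0.00108), while the 2 cDC2 subsets overlapped (edgeR adjusted p = 0.73). Both genes were therefore lower in pDC than in Esamlo by a wider margin than they differed among classical subsets: 8.21-fold for Wdfy4 and 6.01-fold for Rab43 (edgeR adjusted p = 2.73e-08 and 1.59e-09).

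The surface molecules that engage other cells followed. CADM1 is an adhesion molecule of the immunoglobulin superfamily, and BTLA a co-inhibitory receptor whose ligand is HVEM, encoded by Tnfrsf14. Cadm1 stood at 680 and 697 CPM in Dec205 WT, 44.7 and 94.7 in Esamlo, 43.1 and 33.3 in pDC and 15.8 and 25.9 in Esamhi. The 2 Esamlo libraries differed by more than 2-fold, and pDC was not separated from Esamlo (edgeR adjusted p = 0.0512) or from Esamhi (0.055). Btla read 681 and 748 CPM in Dec205 WT, 132 and 115 in Esamlo, 89.6 and 71.9 in Esamhi and 46.5 and 61.7 in pDC. These libraries fell in 4 levels that did not overlap. The lowest step, pDC below Esamhi, was 1.49-fold (edgeR adjusted p = 0.00526), and it missed the threshold without pDC WT replicate 1 (0.054) or Esamhi WT replicate 1 (0.0703). Tnfrsf14 itself was low, at 3.74 to 7.91 CPM in the 8 WT libraries.

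Naaa, Sept3 and Snx22 encode intracellular proteins. NAAA is a lysosomal acid amidase that degrades palmitoylethanolamide and related lipid amides. Naaa stood at 2460 and 2535 CPM in Dec205 WT, 149 and 138 in Esamlo, 56.3 and 34.9 in Esamhi and 16.7 and 11.4 in pDC. The gap to pDC was 178-fold, the widest of the 10 genes (edgeR adjusted p = 4.45e-10). Sept3 encodes a septin, a GTP-binding protein that assembles into filaments, and is known mainly from neurons. It read 112 and 178 CPM in Dec205 WT, 12.3 and 16.5 in Esamlo, 12.5 and 16.8 in Esamhi and 2.24 and 0.762 in pDC. Esamlo and Esamhi overlapped (edgeR adjusted p = 1). Snx22 encodes a sorting nexin, one of a family of phosphoinositide-binding proteins of the endosome. Its levels were 323 and 321 CPM in Dec205 WT, 24.9 and 23.5 in Esamlo, 19.92 and 19.87 in Esamhi and 8.12 and 8.84 in pDC. Exons of Snx22 share 825 bases with Ppib on the opposite strand, and the library kit does not mark strand, so reads from those bases cannot be assigned to 1 of the 2 genes. Ppib, a peptidyl-prolyl isomerase, stood at 35.1 to 88.3 CPM as group means in WT.

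**Figure D2:**
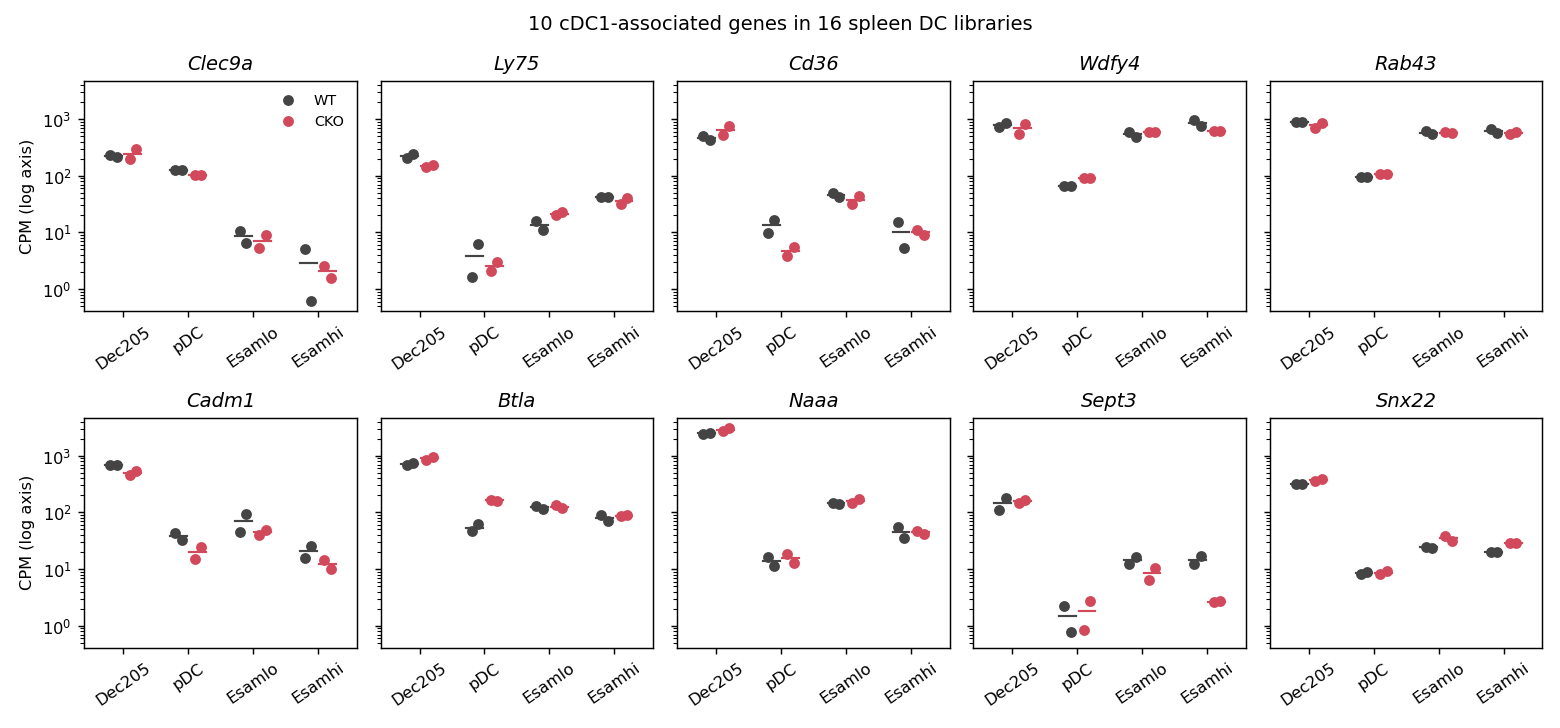
CPM of the 10 genes in all 16 libraries, on a log axis shared by all panels. Each point is 1 library, each short line the mean of the 2 libraries of a group, grey for WT and red for CKO. For 9 genes the Dec205 libraries lie far above the pDC libraries in both genotypes, whereas the Clec9a mean in pDC WT is 56.8% of that in Dec205 WT.

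Per kilobase of exon the 10 genes spanned a wide range in Dec205 WT. Naaa had 671 CPM per kb and ranked 50 among 13080 genes with a length. Btla followed at 210.4 (rank 208), Rab43 at 161 (rank 282), Cd36 at 131 (rank 342) and Snx22 at 111 (rank 421). The length used for Snx22 includes the 825 bases shared with Ppib, so its level per kb and rank are less certain. Wdfy4, Clec9a and Cadm1 lay together at 74.0, 67.4 and 66.0 CPM per kb, and Ly75 and Sept3 were lowest at 31.9 and 21.9. The 2 cDC2 subsets differed from each other for 6 of 10 genes, where 5.81% of all tested genes did. Esamlo was higher for Cd36, Cadm1, Naaa and Btla, and Esamhi for Ly75 and Wdfy4. Of these calls Cd36 and Naaa held without any 1 of the 4 libraries. Btla (0.0252) was lost without Esamlo WT replicate 1 (0.158), Esamlo WT replicate 2 (0.0616) or Esamhi WT replicate 2 (0.224). Cadm1 (0.01) was lost without Esamlo WT replicate 2 (0.137) or Esamhi WT replicate 1 (0.147), as was Wdfy4 (0.0313, then 0.282 and 0.317), all edgeR adjusted p. The 27 other cDC1 genes summed to 2198 and 2197 CPM in Esamlo WT and to 1541 and 1776 in Esamhi WT. The part of cDC1 cells in the Esamlo and Esamhi levels of the members was not tested. The pDC differed from Esamlo for 9 of 10 genes and from Esamhi for 8 of 10, with 45.7% and 47.1% of all genes called. Only Clec9a was higher in pDC in both of these comparisons.

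Across the 16 libraries the genes grouped as their subset levels did. Pearson's r of log2 CPM was 0.984 between Wdfy4 and Rab43, 0.976 between Naaa and Snx22, and from -0.401 to 0.647 between Clec9a and each of the other 9. These values describe the points, which share 4 subsets and are not independent. Among 8866 genes whose log2 CPM averaged 3 or more, the gene most like Clec9a was P2ry14 (r = 0.97), a purinergic receptor, followed by Hhex and Gpr171. For Wdfy4 it was Zbtb46 (0.992), a transcription factor of classical dendritic cells, and for Rab43 it was Treml4 (0.997), followed by Fam129a and Actr3. Rab7b, a small GTPase of the late endosome, was most like Cadm1 (0.982), Camk1d most like Naaa (0.986) and Ffar4, a fatty acid receptor, most like Snx22 (0.987). The nearest to Cd36 was Mrps27 (0.973), to Sept3 Tcf19 (0.981), to Btla Pomp (0.978) and to Ly75 Dlgap4 (0.977).

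CKO against WT is the study's comparison of Etv6-deficient with WT cells in each subset, although the Etv6 total itself was lower by the test in Dec205 and not in the other 3. In Dec205, the subset where these genes are highest, no member passed the test (0 of 10, where edgeR called 6.78% of all tested genes). At an unadjusted p under 0.05 there was 1, Btla, and DESeq2 also called 0. Estimates ran from a log2 difference of -0.55 ± 0.33 for Ly75 to 0.44 ± 0.34 for Cd36, with a median of 0.12 over the 10 genes and 0.00 over all. The summed level of the 10 genes was 6817 and 7085 CPM in Dec205 WT and 6600 and 7957 in Dec205 CKO, so the groups overlapped. Naaa, at 2681 and 3064 CPM in CKO, and Btla, at 835 and 958, lay above both WT libraries, as did Cd36 at 527 and 743 and Snx22 at 358 and 386. Ly75, at 143 and 157 CPM, Cadm1, at 449 and 543, and Rab43, at 707 and 841, lay below both. That makes 7 of 10 genes whose groups did not overlap, against 41.2% of all tested genes. Clec9a (197 and 291 CPM), Wdfy4 (555 and 810) and Sept3 (148 and 165) overlapped with WT. The 2 Dec205 CKO libraries differed by more than the genotype means for Clec9a, Wdfy4, Cd36, Rab43, Naaa and Sept3. All 10 genes read lower in CKO replicate 1 than in CKO replicate 2. Without CKO replicate 2 the log2 differences of Clec9a and Wdfy4 were -0.16 and -0.49, and without CKO replicate 1 they were 0.40 and 0.06. B cell markers summed to 256 and 249 CPM in Dec205 WT against 984 and 507 in CKO (replicate 1 first). In the same Dec205 libraries pDC markers summed to 361 and 358 CPM against 677.5 and 584. Ms4a1, a defining B cell gene, moved with the genotype there (2.78-fold higher in CKO, edgeR adjusted p = 0.00932). Of 10 monocyte markers 4 rose and 1 fell, while macrophage markers summed to 238 and 266 CPM in WT against 137 and 160.5 in CKO, with 0 of 9 called by edgeR, 3 at an unadjusted p under 0.05 and 1 by DESeq2. Genes of dendritic cell maturation summed to 17740 and 16850 CPM in Dec205 WT against 11710 and 12700 in CKO, with 6 of 20 lower (Ccr7, the receptor that guides mature cells to lymph nodes, and Il12b among them) and 0 higher. The part of other cell types or of maturation in the member values was not tested. In these sorted bulk samples fewer cells of a type and less RNA per cell cannot be told apart.

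**Figure D3:**
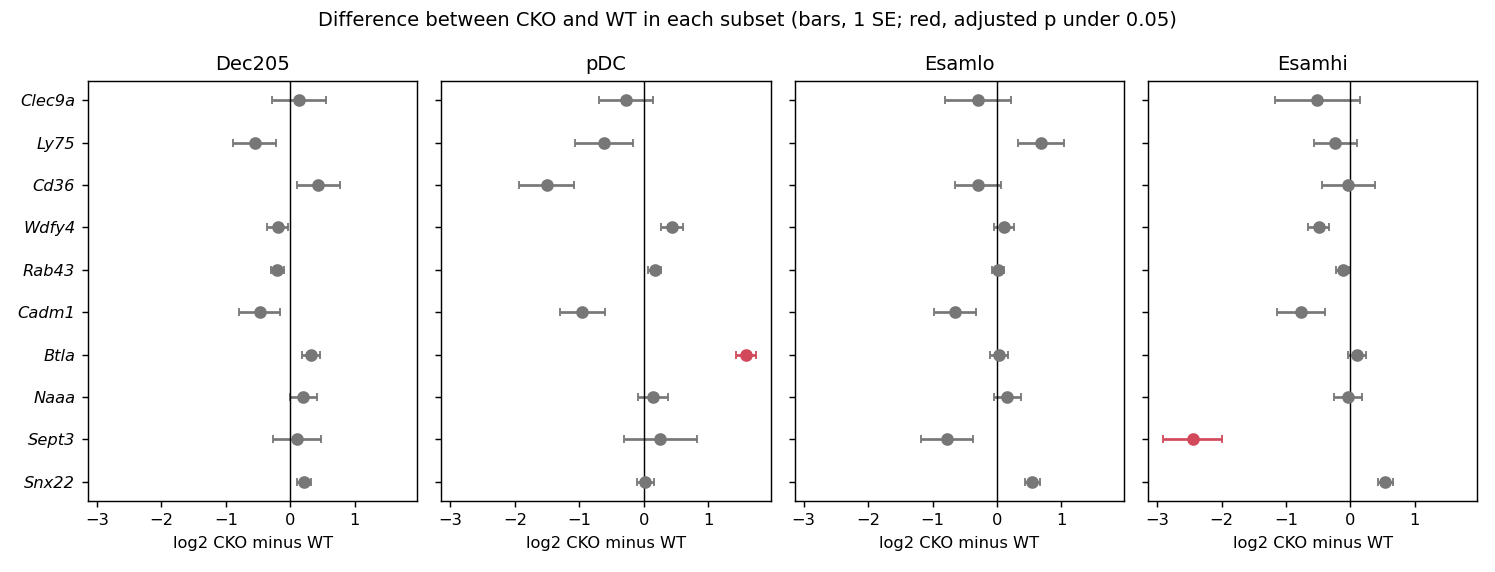
Log2 difference of CKO minus WT for the 10 genes in each subset, with bars of 1 SE from the edgeR fit (n = 2 libraries per group). Red points passed an adjusted p of 0.05: Btla in pDC at 1.59 and Sept3 in Esamhi at -2.45. No point in Dec205 or Esamlo is red.

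In pDC 1 of 10 genes passed, Btla, where 1.85% of all tested genes did. Btla rose from 46.5 and 61.7 CPM in WT to 168 and 158 in CKO. The groups were far apart and each pair of libraries close. The rise was 3.01-fold (log2 1.59 ± 0.15 SE, edgeR adjusted p = 0.000102), and it passed without each of the 4 libraries in turn, with log2 values from 1.41 to 1.80. In rank this took Btla in pDC from the lowest of the 4 subsets in WT to above Esamhi in CKO. There pDC exceeded Esamhi 1.88-fold (edgeR adjusted p = 0.000191), and Esamlo 1.29-fold, which did not pass (0.0509). Dec205 was 5.49-fold above pDC in CKO and 13.2-fold in WT. B cells and T cells also express Btla. The 12 B cell markers summed to 430 and 382 CPM in pDC WT and to 529 and 432 in pDC CKO, and the 10 T cell markers to 45.4 and 36.8 against 54.0 and 57.9. By edgeR and by DESeq2 0 of these 12 and 0 of these 10 passed in pDC, with 1 and 0 at an unadjusted p under 0.05, and the part of such cells in the rise was not tested. The nearest gene to Btla, Atg3, stood at 123 ± 1.36 CPM in pDC WT and 119.9 ± 9.09 in CKO (SD, n = 2).

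The other 9 genes did not pass in pDC. Cd36 went from 9.88 and 16.9 CPM to 3.86 and 5.57, without overlap (log2 -1.51 ± 0.43, edgeR adjusted p = 0.136), and DESeq2 called it (adjusted p = 0.0329). Cadm1 read 43.1 and 33.3 CPM in WT against 15.0 and 24.5 in CKO (edgeR adjusted p = 0.299). Wdfy4 read 65.4 and 65.9 against 89.5 and 89.4 (edgeR adjusted p = 0.326). Clec9a, the member pDC share with Dec205, read 125 and 127 CPM in WT and 105 and 104 in CKO (edgeR adjusted p = 0.951). In all 6 of 10 genes had groups that did not overlap, against 37.3% of all genes. Ly75 in pDC rests on 1 WT library: at 1.60 and 6.15 CPM against 2.06 and 3.05, its log2 difference was -1.26 without pDC WT replicate 1 (edgeR adjusted p = 0.0469) and 0.66 without replicate 2.

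In Esamlo edgeR called 0 of 10 genes (and 0.551% of all genes). Snx22 came closest, from 24.9 and 23.5 CPM in WT to 39.1 and 31.8 in CKO (log2 0.55 ± 0.12, edgeR adjusted p = 0.0651), and DESeq2 called it (adjusted p = 0.00186). Without Esamlo CKO replicate 1 its log2 difference was 0.40 (edgeR adjusted p = 0.702). The B cell markers summed to 399.5 and 541 CPM in Esamlo WT against 1428 in that CKO library and 591 in the other, and their part in the Snx22 value was not tested. Snx22 was 1 of 3 genes without overlap, beside Ly75 (15.7 and 10.9 against 20.1 and 22.7 CPM) and Sept3 (12.3 and 16.5 against 6.50 and 10.3), where 44.2% of all genes had none. At an unadjusted p under 0.05 Snx22 was the only member.

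In Esamhi 1 of 10 genes passed, Sept3, where 0.877% of all genes did. Sept3 fell from 12.5 and 16.8 CPM in WT to 2.58 and 2.76 in CKO, from 235 and 323 counts to 38 and 49. The fall was 5.47-fold (log2 -2.45 ± 0.46 SE, edgeR adjusted p = 0.0282). Its direction held under every alternative, but the call was lost with no filter on low counts (0.0692) and without Esamhi WT replicate 1 (0.0908), WT replicate 2 (0.186), CKO replicate 1 (0.27) or CKO replicate 2 (0.223). The WT level it fell from was 10.1% of that in Dec205 WT. Snx22 read 19.92 and 19.87 CPM in WT and 29.4 and 28.6 in CKO, a log2 difference of 0.54 ± 0.12 that did not pass with edgeR (adjusted p = 0.0533) and did with DESeq2 (0.00247). Wdfy4 read 970 and 750 CPM against 611 and 613 (edgeR adjusted p = 0.348, and 0.0324 in a fit of the 4 Esamhi libraries alone). Altogether 5 of 10 genes had groups without overlap (Snx22 higher, and Ly75, Sept3, Wdfy4 and Cadm1 lower in CKO), against 44.2% of all genes. The other 27 cDC1 genes summed to 1541 and 1776 CPM in Esamhi WT and to 2256 and 2216 in CKO. Of these genes Irf8 and Nfil3 rose and Cd8a fell, Id2 made the largest addition to the sum (532 and 764 against 963 and 987 CPM, edgeR adjusted p = 0.263), and the median log2 difference over the 27 was -0.18. Their part in the Sept3 fall was not tested.

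**Figure D4:**
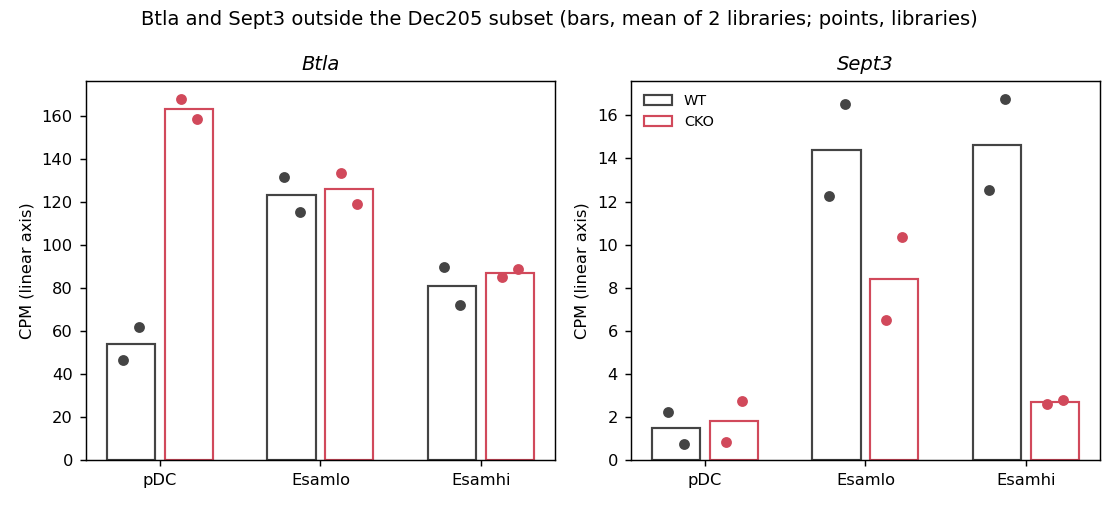
CPM of Btla and Sept3 in pDC, Esamlo and Esamhi on linear axes, with bars for the mean of 2 libraries and points for the libraries. The Btla points in pDC go from 46.5 and 61.7 in WT to 168 and 158 in CKO, and the Sept3 points in Esamhi from 12.5 and 16.8 to 2.58 and 2.76.

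Averaged over the 4 subsets with equal weight, 3 of 10 genes passed (5.82% of all genes): Btla and Snx22 rose and Cadm1 fell. Btla was higher in CKO by 0.51 ± 0.07 on the log2 scale (edgeR adjusted p = 0.000786), of which pDC supplied the largest of the 4 subset differences. Snx22 was higher by 0.33 ± 0.06 (edgeR adjusted p = 0.00464), with subset differences of 0.55 in Esamlo, 0.54 in Esamhi, 0.21 in Dec205 and 0.03 in pDC. Ppib, which shares exon bases with Snx22, differed by 0.07, 0.11, -0.08 and 0.03 in the same order. Cadm1 was lower by 0.71 ± 0.17 (edgeR adjusted p = 0.0279), its CKO mean being below the WT mean in 4 of 4 subsets, with log2 differences from -0.95 in pDC to -0.47 in Dec205. The Cadm1 call was lost with no filter (0.102). It was lost too without pDC WT replicate 1 (0.0558), pDC CKO replicate 1 (0.0654), Esamlo WT replicate 2 (0.0556), Esamlo CKO replicate 1 (0.0758), Esamhi WT replicate 2 (0.0853) or Esamhi CKO replicate 2 (0.0813). Of 12 B cell markers, 6 were higher in CKO in this mean, and their part in the Btla value was not tested. Gm10677, a noncoding gene within Cadm1, stood at 13.2 CPM in Dec205 WT and 10.5 in CKO (edgeR adjusted p = 0.773). Reads of Cadm1 RNA from within that span could be counted as Gm10677, which was not tested.

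Whether the CKO difference itself varied between subsets was tested with the interaction terms. In the joint test over the 4 subsets 1 of 10 genes passed, Btla (edgeR adjusted p = 0.0031), and 2.44% of all genes did. The Btla difference was smaller in Dec205 than in pDC by 1.26 ± 0.20 on the log2 scale (edgeR adjusted p = 0.00573), the only member called between those subsets (2.41% of all genes). Sept3 differed between Dec205 and Esamhi by 2.56 ± 0.59 (edgeR adjusted p = 0.0494), the only one called there (1.91%). This call was lost with no filter (0.114) and without every Dec205 and Esamhi library except Dec205 WT replicate 2: 0.074 without Dec205 WT replicate 1, 0.0693 and 0.0715 without Dec205 CKO replicates 1 and 2, 0.0978 and 0.183 without Esamhi WT replicates 1 and 2, and 0.186 and 0.195 without Esamhi CKO replicates 1 and 2. Between Dec205 and Esamlo none of the 10 passed (1.53% of all genes), 1 was under an unadjusted p of 0.05, Ly75, and DESeq2 also called 0. These differences share the Dec205 libraries.

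In CKO cells Dec205 had the highest mean of the 4 subsets for all 10 genes. It was higher than pDC for 10 of 10 genes (23.2% of all genes), than Esamlo for 9 of 10 (15.1%) and than Esamhi for 9 of 10 (17.9%), Wdfy4 being the exception in both. Clec9a in Dec205 CKO was 2.34-fold above pDC CKO (edgeR adjusted p = 0.0338). That call was lost without Dec205 CKO replicate 2 (0.161), pDC CKO replicate 1 (0.116) or pDC CKO replicate 2 (0.126), and with library size alone (0.0655), no filter (0.106) or DESeq2 (0.135). Wdfy4 was level across classical CKO subsets, at 555 and 810 CPM in Dec205, 583 and 579 in Esamlo and 611 and 613 in Esamhi. Its difference from Esamlo did not pass (edgeR adjusted p = 0.311), but did without Dec205 CKO replicate 1 (0.0367). The Rab43 step to Esamlo in CKO (1.34-fold, edgeR adjusted p = 0.0071) was lost without Dec205 CKO replicate 2 (0.0828) or Esamlo CKO replicate 2 (0.0691).

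Other genes of the same biology were counted in Dec205 from lists chosen with earlier results known, and their counts stand beside the 6.78% of all genes called. Of 27 other cDC1 genes, 1 rose and 1 fell by edgeR, with 3 at an unadjusted p under 0.05 and 3 called by DESeq2. Tlr12, a receptor for profilin of parasites, rose from 184 ± 2.76 to 344.5 ± 30.3 CPM (SD, n = 2, edgeR adjusted p = 0.0197). Cd8a, the coreceptor chain carried by spleen cDC1, fell 10.6-fold, from 740.1 ± 58.3 to 69.9 ± 1.03 CPM (edgeR adjusted p = 4.25e-05). Xcr1, Batf3 and Irf8 did not pass (edgeR adjusted p = 0.499, 0.258 and 0.309). Itgae, at 205.5 and 259 CPM in WT against 528 and 719 in CKO, did not pass either (edgeR adjusted p = 0.0773).

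Of 44 genes of the cross-presentation machinery, 2 rose and 3 fell in Dec205 by edgeR. At an unadjusted p under 0.05 there were 10, and DESeq2 called 6. Cybb, the catalytic subunit of the phagosomal NADPH oxidase, rose 3.61-fold (33.2 ± 6.70 to 119.8 ± 43.7 CPM) and its GTPase partner Rac2 rose 1.99-fold (edgeR adjusted p = 0.000104 and 0.000127). In pDC WT these 2 genes averaged 1712 and 1302 CPM, and the part of other cell types in their rise was not tested. Apol7c, an apolipoprotein L member implicated in the release of antigen from endosomes, fell 4.27-fold (972 ± 161 to 228 ± 15.8 CPM, edgeR adjusted p = 8.93e-05). Vcp and Sec61a1, parts of the machinery that draws proteins across the ER membrane, fell 1.25-fold and 1.23-fold (edgeR adjusted p = 0.0224 and 0.0368). The class I loading genes Tap1, Tap2, Tapbp and B2m did not pass, their log2 differences lying between -0.12 and 0.07.

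Of 24 genes of dead-cell uptake and signalling, 2 rose, Timd4, a phosphatidylserine receptor, and Pros1, a bridging ligand of the TAM receptors (by 2.55 and 1.78 on the log2 scale, edgeR adjusted p = 0.0302 and 0.00696). At an unadjusted p under 0.05 there were 9 of the 24, and DESeq2 called 5. By edgeR 0 of 18 tested binding partners and relatives of the members passed in Dec205 (3 at an unadjusted p under 0.05, 1 by DESeq2), Tnfrsf14 among them (7.67 and 7.91 against 5.38 and 6.87 CPM). In pDC 1 of those 18 passed, where 1.85% of all tested genes did. This was Cd302, the neighbour of Ly75 on chromosome 2, at 0.160 and 0.203 CPM in WT against 0.634 and 0.750 in CKO (edgeR adjusted p = 0.0333). The WT values lie near the level of 3 counts, which is 0.160 and 0.152 CPM in the 2 pDC WT libraries. Among 10 tested septins Sept1 rose 1.81-fold and Sept9 fell 1.48-fold in Dec205 (edgeR adjusted p = 0.00174 and 0.0138), and among 28 sorting nexins Snx27 rose 1.64-fold (0.041). For septins and for sorting nexins alike, 4 were at an unadjusted p under 0.05 and DESeq2 called 2. Medians over these lists lay between -0.20 and 0.13 on the log2 scale.

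Genes that lie next to the members were read for shared position. Sdad1, 5829 bases from Naaa on chromosome 5, was also highest in Dec205, at 200.6 CPM in WT against 24.9 in pDC, 59.4 in Esamlo and 28.9 in Esamhi (group means). Ppef2, 1382 bases on the other side of Naaa, stood at 8.13 CPM in Dec205 WT and at 0.00 in both pDC and Esamhi WT. Lrrc18 lies within Wdfy4 on chromosome 14, on the opposite strand and with no shared exon base. Its levels followed those of Wdfy4, at 8.62 CPM in Dec205 WT, 0.561 in pDC, 6.13 in Esamlo and 7.71 in Esamhi. As the kit does not mark strand, reads of Wdfy4 RNA from within that span could be counted as Lrrc18, which was not tested. Cd302, next to Ly75, did not follow it: its WT mean was 33.3 CPM in Esamlo, 14.8 in Esamhi and 6.81 in Dec205. Isy1, next to Rab43, lay between 39.0 and 60.3 CPM in the 4 WT subsets.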

How the data were processed

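RNA of sorted spleen dendritic cells was amplified with a SMART-seq v4 kit and sequenced in 16 libraries, per the labels' protocols. This kit does not mark strand. The submitters' processing notes name bcl2fastq, Trimmomatic 0.36, Bowtie2 2.2.9 and the build mm10. The counting tool is not given in the sources used here. The authors deposited raw read counts per gene in 1 table, used as deposited. The members and lists were chosen with earlier results of these data known.

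One edgeR 4.0.16 (R 4.3.3) quasi-likelihood model was fitted to all 16 libraries with 1 coefficient per group (8 residual degrees of freedom), TMM scaling and edgeR's default expression filter. Genes with a Benjamini-Hochberg adjusted p under 0.05 over all 13790 tested genes were called. Tests were two-sided, SE is the log2 difference over the root of F, and log2 levels used a prior count of 2. The model was tested on simulated data. Named genes were the 10 members, the 3 genes most like each, their neighbours, and list genes called in Dec205 (at most 4 per list and direction). Names outside this rule were chosen after their values were seen. Positions and promoters are from RefSeq and GENCODE on GRCm38. Alternatives were DESeq2 1.42.0 as test or scale, library size alone, no filter, only the compared libraries, a replicate term and leaving out each library; those on the mean of subsets, on interactions and on other subset pairs were added after the data were seen. No p-value here has more than 2 libraries per group behind it.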

Additional observations from a re-analysis of the deposited data

Results flagged for a closer look

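There were 3 values that stood out because the CKO difference was not the same in all subsets, each by a test of the difference itself. Btla passed the joint test over the 4 subsets (edgeR adjusted p = 0.0031). Its CKO minus WT difference was 1.59 on the log2 scale in pDC, 0.33 in Dec205, 0.10 in Esamhi and 0.03 in Esamlo, so Dec205 minus pDC came to -1.26 (edgeR adjusted p = 0.00573). Sept3 differed by 2.56 between Dec205 and Esamhi (edgeR adjusted p = 0.0494), from 0.10 in Dec205 and -2.45 in Esamhi. In Esamlo Sept3 stood at -0.78, and the joint test for it did not pass (edgeR adjusted p = 0.107). With 2 libraries per group no library could be tested for standing apart.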

How the results depend on the processing

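Of the values for single genes, 1489 kept their direction and side of the threshold, 42 reversed, 44 were lost and 19 gained under the alternatives; the reversals concern differences near 0 or pairs of libraries that disagreed, and the cause was not tested. Low counts limit Clec9a in Esamhi WT and Sept3 and Ly75 in pDC, where a library holds as few as 12 counts.

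With no filter on low counts 0 members passed in Esamhi and 0 between Dec205 and Esamhi. With library size alone Rab43 in Esamlo CKO against WT turned to -0.0046 and Sept3 in Esamlo against Esamhi WT to 0.0072. DESeq2 called 1707 genes in Dec205 CKO against WT, 549 in pDC, 250 in Esamlo, 305 in Esamhi and 1347 in the mean, with 0, 2, 1, 2 and 4 members in that order. Between subsets it called 869 genes for Dec205 minus pDC (2 members), 593 for minus Esamlo, 643 for minus Esamhi, 1082 jointly (3 members), and 1400 for Esamlo against Esamhi WT. Fits of only the compared libraries called 136, 91, 126 and 578 genes for CKO against WT in Dec205, pDC, Esamlo and Esamhi (2 members in Esamhi), 64, 70 and 131 for Dec205 minus pDC, Esamlo and Esamhi, and 1561 for Esamlo against Esamhi WT. Fewer libraries then estimate the spread.

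The labels name no batch behind the replicate numbers. Deviations of same-numbered libraries correlated from -0.0692 to 0.116 over 28 pairs of groups. Negative values occurred only between groups of different genotype. The highest were between Esamlo and Esamhi of the same genotype, at 0.116 in WT and 0.109 in CKO. Whether same-numbered libraries of a genotype came from the same animals was not tested. The numbers were not taken to pair, so tests across subsets treat these libraries as independent. The replicate block links the numbers across genotypes too. With the replicate block 971, 260, 86 and 136 genes were called for CKO against WT in Dec205, pDC, Esamlo and Esamhi (0, 1, 0 and 1 members), Btla in pDC stood at 1.59 (edgeR adjusted p = 0.000236) and Sept3 in Esamhi at -2.45 (0.0169). Cadm1 in pDC against Esamhi WT then passed (0.0313).

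Leaving out 1 library at a time, the lone library of a group being taken to vary like the others, the counts of genes called ran from 585 (without Dec205 WT replicate 2) to 1328 in Dec205 CKO against WT, from 28 (without Esamlo WT replicate 2) to 38 in Esamlo, from 44 (without Esamhi CKO replicate 1) to 48 in Esamhi, and from 520 (without Esamlo CKO replicate 1) to 1101 in the mean. For the differences they ran from 198 (without pDC CKO replicate 2) to 674 for Dec205 minus pDC, from 79 (without Esamlo CKO replicate 2) to 466 for minus Esamlo, from 113 (without Esamhi WT replicate 2) to 517 for minus Esamhi, and from 219 (without Esamhi CKO replicate 2) to 532 jointly; the highest value was without Dec205 WT replicate 1 in these 4. Esamlo against Esamhi WT gave 303 to 501 genes, and Dec205 against Esamlo CKO 2942 to 4031. Members called ran from 1 to 2 in pDC (2 without pDC WT replicate 1), were 0 in Esamhi without any 1 library, ran from 1 to 2 for Dec205 minus pDC (2 without Dec205 CKO replicate 2), from 0 to 1 for minus Esamhi, from 1 to 3 jointly (3 without pDC WT replicate 1), and from 2 to 5 for Esamlo against Esamhi WT.

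Single log2 differences that reversed when 1 library was left out ran as follows. For CKO against WT in Dec205, Clec9a went from -0.16 to 0.40, Wdfy4 from -0.49 to 0.0588 and Sept3 from -0.18 to 0.47. In pDC, Naaa went from -0.15 to 0.45, Sept3 from -0.81 to 1.22, Ly75 from -1.26 to 0.66 and Snx22 from -0.077 to 0.12. In Esamlo, Clec9a went from -0.72 to 0.11, Wdfy4 from -0.0441 to 0.28, Rab43 from -0.0665 to 0.10 and Btla from -0.0597 to 0.13. In Esamhi, Clec9a went from -1.36 (without WT replicate 2) to 1.68 (without WT replicate 1), Rab43 from -0.23 to 0.0032, Naaa from -0.34 to 0.35, Cd36 from -0.60 to 0.92 and Btla from -0.0473 to 0.27. In the mean, Clec9a went from -0.44 to 0.31, Wdfy4 from -0.11 to 0.029 and Ly75 from -0.34 to 0.14. Sept3 in Dec205 minus pDC went from -1.11 to 0.92. Among subsets, Wdfy4 went from -0.32 to 0.0537 in Dec205 against Esamhi WT, from -0.15 to 0.40 against Esamhi CKO and from -0.0707 to 0.48 against Esamlo CKO. In Esamlo against Esamhi WT, Rab43 went from -0.21 to 0.0284 and Sept3 from -0.25 to 0.20, and Cd36 in pDC against Esamhi WT from -0.20 to 1.32. Sept3 in the mean passed with DESeq2 (-0.72, adjusted p = 0.0215) and, by edgeR, without pDC WT replicate 2 (-0.86, edgeR adjusted p = 0.0418) or pDC CKO replicate 2 (-0.98, 0.0311).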
